A study of Caenorhabditis elegans with 2 samples.

Results

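Coding exon peaks of the second replicate were the 558 nuclear peaks, of 1721 in its relaxed ce11 list, whose summit lay inside an annotated coding sequence. They were chosen by the position of the summit, so the coding base under each summit and the number of members are a description and no finding. The data are ChIP-seq of PHA-4 in late embryos of Caenorhabditis elegans, taken as whole animals of pooled male and female sex. All animals were of strain OP37, with the genotype unc-119(ed3) III; wgIs37, and the transgene supplies eGFP::PHA-4. There was 1 group with 2 biological replicates, each from its own biosample, and no untagged or otherwise untreated group among the samples. Because the whole embryo was used, cells with and without PHA-4 were mixed. No read counts are in the deposited lists and the depth of either library is unknown, and all intervals below cover the counting of peaks only.

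PHA-4 is a forkhead factor of the FoxA type that sets up the pharynx, through which the worm feeds, and also acts in the gut. Factors of this class bind DNA mainly in promoters and enhancers, while coding exons hold the protein sequence and are richer in G and C than introns in this genome. A relaxed peak list is made to reach into the background of a library, so the weakest enrichments of a ChIP are listed together with any stronger sites.

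The signal of the members was low throughout. The authors' signal, computed against the control, ran from 2.006 to 5.323 in the 558 members, with a median of 2.36 (95% interval 2.32 to 2.41). It was above 3 in 81 members and above 4 in 11. The 1163 other nuclear peaks of the list had a median of 2.32 (2.27 to 2.36), and their highest value was 6.433. The smallest q-value was 0.351 in both groups, and the median q was 0.625 for the members and 0.684 for the others. No nuclear peak of the list therefore had a q of 0.05 or less, against 5235 of the 5594 nuclear peaks of replicate 1.

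The sequence at the summits of 6 strong members is shown because these are what the strongest coding signals of the list look like. Each line gives 121 bases centred on the summit, on the strand of the gene, in WBcel235 (ce11), with coding bases in capitals and intron bases in lower case. They are the strongest members whose window holds no untranslated exon bases, with 1 chromosome left out of the choice.
dpy-26, chrIV:12446762-12446882, minus strand: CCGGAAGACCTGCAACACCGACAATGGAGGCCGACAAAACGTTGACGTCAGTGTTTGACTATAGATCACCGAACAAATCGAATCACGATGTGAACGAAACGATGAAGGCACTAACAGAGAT
xpo-1, chrV:7805818-7805938, plus strand: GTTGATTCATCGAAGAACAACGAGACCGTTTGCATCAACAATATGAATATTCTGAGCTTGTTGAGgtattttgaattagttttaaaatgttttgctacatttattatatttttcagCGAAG
M18.6, chrIV:12121945-12122065, plus strand: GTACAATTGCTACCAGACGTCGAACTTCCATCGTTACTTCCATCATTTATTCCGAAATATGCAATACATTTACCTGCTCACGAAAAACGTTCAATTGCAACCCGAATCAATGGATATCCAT
nhr-35, chrX:4532713-4532833, plus strand: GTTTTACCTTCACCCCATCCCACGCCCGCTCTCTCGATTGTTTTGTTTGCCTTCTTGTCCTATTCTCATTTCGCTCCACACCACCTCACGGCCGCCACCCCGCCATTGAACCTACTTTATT
faxc-2, chrII:13309735-13309855, plus strand: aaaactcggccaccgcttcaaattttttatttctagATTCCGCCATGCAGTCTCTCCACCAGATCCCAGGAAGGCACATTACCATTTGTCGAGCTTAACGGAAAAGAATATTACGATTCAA
pezo-1, chrIV:9347078-9347198, minus strand: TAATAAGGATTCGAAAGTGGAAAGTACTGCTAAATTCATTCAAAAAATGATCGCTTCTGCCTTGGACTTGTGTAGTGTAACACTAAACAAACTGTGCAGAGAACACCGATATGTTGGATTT
All 121 bases were coding in dpy-26, M18.6, nhr-35 and pezo-1. In xpo-1 the coding part was 70 bases, cut by an intron, and in faxc-2 it was 85. The GC content of these windows ran from 30.6% in xpo-1 to 52.1% in nhr-35.

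The strongest member lay in dpy-26, which encodes a kleisin subunit of condensin complexes, with a signal of 5.323 in coding exon 9 of 10. It was followed by xpo-1, the nuclear export receptor exportin, with a signal of 5.151 at the end of its first coding exon. W08E12.7 had a signal of 4.868 in its last coding exon, and M18.6 had 4.849 in exon 3 of 4. The nuclear hormone receptor gene nhr-35 had 4.717 in its first coding exon, and faxc-2 had 4.697 in exon 3 of 6. The mechanosensitive channel gene pezo-1 had 4.479 in exon 27 of 33. ZK228.1, Y37F4.6 and pcca-1, the alpha subunit of propionyl-CoA carboxylase, followed with signals of 4.209, 4.206 and 4.16. The chemoreceptor gene srz-71 was the last above 4, with 4.035. C30G12.6, ZC434.8, the fatty acyl-CoA reductase gene fard-1 and F23F1.2 completed the 15 strongest, with signals from 3.961 down to 3.835.

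These 15 differed widely in where they lay. Of the 15, 10 were in internal exons, 3 in first and 2 in last coding exons, and the coding length of their genes ran from 747 to 7326 bp with a median of 1608. Coding sequence made up from 37.6% to 92.5% of the peak, with a median of 87.5%, and GC content ran from 34.2% to 49.3%, with a median of 40.5%. None of the 15 overlapped a replicate 1 peak. At the other end of the list, klp-19, csr-1 and F52E1.2 had the lowest signals of the members, 2.006, 2.007 and 2.008, and were named after their values were seen.

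Coding exons held 32.4% of the nuclear summits of replicate 2 (95% interval 30.2 to 34.7), where coding sequence is 24.6% of nuclear bases, or 24.7 of 100.3 Mb. Introns held 519 summits, 30.2% against 33.8% of bases, and intergenic sequence 492, 28.6% against 33.3%. Other exon sequence held the remaining 152, 8.83% against 8.27%. In replicate 1 coding exons were instead below their share of bases. There 860 of 5594 summits, 15.4% (14.4 to 16.3), were coding, and 45.7% were intergenic. In the pooled list 1491 of 7750 were coding, 19.2%, and of the 8 nuclear peaks in the authors' final list 0 were, which allows a share of up to 36.9%. With 1 library behind each share there is no test over samples of the difference between the replicates.

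**Figure D1:**
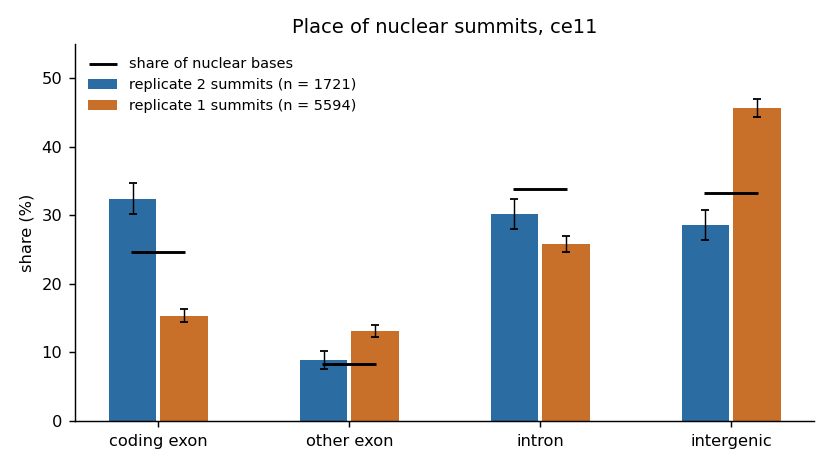
Share of nuclear summits (%, bars) in coding exons, other exons, introns and intergenic sequence for the 1721 peaks of replicate 2 and the 5594 of replicate 1, with exact 95% binomial intervals, and the share of nuclear bases in each place (black lines). Coding exons are above their line in replicate 2 at 32.4% and below it in replicate 1 at 15.4%.

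The coding share did not follow the rank of the peaks. It was 28.0% among the 100 strongest nuclear peaks (19.5 to 37.9) and 42.0% at ranks 101 to 250 (34.0 to 50.3). From rank 251 to 500 it was 32.4%. The next group, up to rank 1000, had 33.6%, and the weakest peaks, from rank 1001 to 1721, had 30.2%. The intervals of the first 2 rank groups overlapped. Within the members, the median coding share of the peak was 81.5% for those among the 100 strongest and 63.7% at ranks 1001 to 1721, and median GC was 39.8% and 37.6%. Across the 558 members, which share a library, Spearman's rho of signal was 0.121 with GC, 0.129 with the coding share of the peak, 0.142 with exon length and 0.0057 with the coding length of the gene. GC and exon length were themselves related, with a rho of 0.423.

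GC content was compared with windows of the same width, 590 bp, centred on every nuclear coding base, which stand in for random coding positions without drawing any. Member peaks had a median GC of 38.3% (37.8 to 39.0), with 10th and 90th percentiles of 33.2% and 44.8%, against a median of 37.8% and percentiles of 32.4% and 44.9% for coding positions. The members were thus 0.51 points above coding positions, and the coding value lay at the edge of their interval. The extremes were hot-5 at 26.1% and F47B8.14 at 59.7%, both named after their values were seen. The other peaks of the list stood farther above their own kind of sequence. Intron peaks had a median of 36.4% (35.9 to 37.0) against 34.6% of intron positions, a difference of 1.86 points. Intergenic peaks had 34.9% (34.6 to 35.4) against 33.6%, and other exon peaks 36.8% (35.4 to 37.3) against 35.6%.

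**Figure D2:**
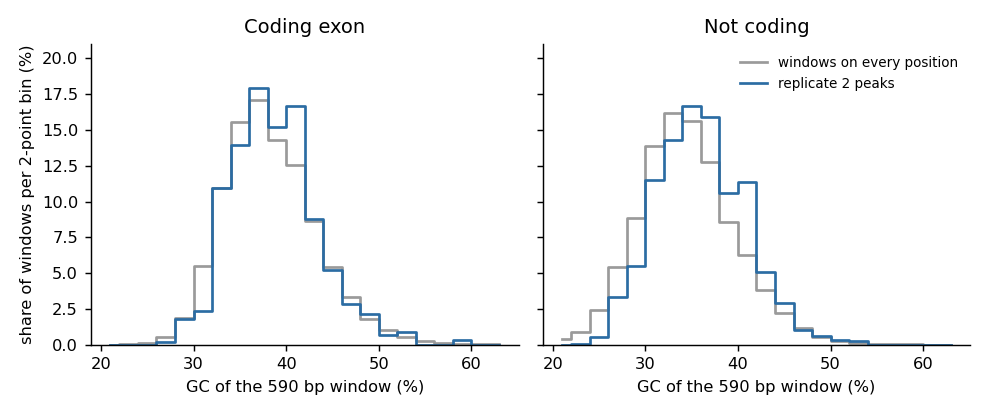
Share of windows (%) by GC content (%) of the 590 bp window, for coding exon peaks and windows on every coding position (left), and for the other nuclear peaks of replicate 2 and windows on every non-coding position (right). The member distribution lies close to that of coding positions, with medians of 38.3% and 37.8%, while the non-coding peaks are moved to higher GC, with medians of 35.8% and 34.2%.

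The difference within coding sequence was not even across the GC range. Sorted into quintiles of coding positions by GC, the members numbered 97, 105, 116, 136 and 104 from the lowest to the highest. Relative to coding bases, the fourth quintile, from 39.2% to 42.2% GC, held 1.27 times its share (24.4% of members, 20.9 to 28.1, against 19.2% of bases). The lowest, up to 34.1% GC, held 0.858 times its share and the highest 0.947 times. GC at the third codon position, where many changes leave the amino acid the same, had a median of 37.5% in the members (36.5 to 38.8) against 38.7% in coding positions. At first and second codon positions the medians were 44.2% (43.7 to 44.7) and 44.02%. The interval lay around the coding value for the first and second positions, and for the third position that value was near its upper end.

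Member peaks held more coding sequence than windows on coding positions. Their median coding share was 68.6% (66.1 to 73.0), against 64.2%. Of the 558 members, 53 were coding over their whole length, 9.50% (7.20 to 12.2), against 6.67% of positions. Quintiles of coding share held 0.752 times their share of summits at the lowest, under 44.2% coding, and 1.29 times at the highest, above 84.4% coding, with 85 and 142 members. The 3 quintiles between were at 1.03, 0.840 and 1.10, so the course was not steady. Intron peaks also held more coding sequence than intron positions, with a median of 18.8% (15.6 to 23.4) against 12.4%.

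Away from the summit the members stayed in exon-rich sequence. In windows 50 bp wide, coding bases were 94.6% at the summit and 93.8% around coding positions. At 200 bp upstream and downstream in chromosome order they were 59.96% and 63.4%, against 55.5% and 55.6%. At 500 bp they were 50.7% and 50.2%, against 42.3% on both sides. Mean GC at the summit was 41.8% ± 0.63 (95% half-width over members), against 42.1% around coding positions. At 500 bp it was 37.4% on both sides with half-widths of 0.82 and 0.80, against 36.3% and 36.4%.

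**Figure D3:**
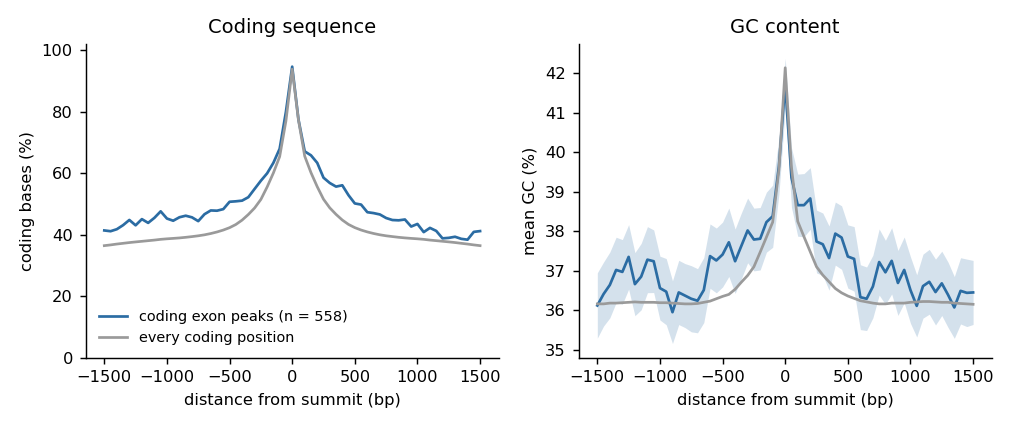
Coding bases (%, left) and mean GC (%, right, band: 95% half-width over the 558 members) in 50 bp windows by distance from the summit in bp, for coding exon peaks and for every coding position. The summit values lie together, at 94.6% and 93.8% coding, and the members are higher at 500 bp, at 50.7% against 42.3%.

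GC content and coding share move together, so each was read within levels of the other. Cutting coding positions into 3 GC ranges at 35.9% and 40.0%, and by exon length at 178 and 365 bp, the lowest GC range held 17.3, 19.5 and 23.8 member summits per coding Mb from short to long exons, from 74, 60 and 29 members. The highest GC range held 25.4, 23.0 and 25.8 per Mb, from 34, 50 and 118 members. The middle range held 27.9, 19.6 and 25.1, with no order by exon length. With coding share in place of exon length, cut at 53.2% and 75.6%, the most coding windows held 23.2, 30.0 and 28.2 summits per Mb from low to high GC. These came from 26, 79 and 126 members. The least coding windows held 16.8, 20.7 and 23.8, from 76, 50 and 31 members. Windows of middle coding share held 20.9, 21.4 and 19.5, from 61, 64 and 45 members, with no rise by GC.

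The share of coding summits was also read at matched GC and without repeats. If nuclear positions are weighted to the GC of the replicate 2 peaks, 28.3% of them are coding, against the 24.6% of all bases and the 32.4% of summits. The GC weights, here and below, come from a list that includes the members themselves. Within quintiles of nuclear positions by GC, 8.63%, 22.8%, 30.3%, 37.9% and 45.55% of peaks were coding, from lowest to highest. Of positions 6.18%, 16.8%, 25.3%, 33.2% and 43.2% were. The intervals of the lowest and highest quintile held the value of the positions, and those between lay above it. Leaving out every peak that holds a 31-base word found elsewhere in the nuclear genome, a choice made after seeing the data, 485 of 1387 peaks were coding, 35.0% (32.5 to 37.5). Of positions without such a word 29.1% were coding, and 33.6% when weighted to the same GC, which lies inside the interval. Few repeats were held by the peaks of the whole list, members and others. Of all nuclear replicate 2 peaks, 80.6% (78.6 to 82.4) held no repeated word, against 67.55% of nuclear positions. Intron peaks had a mean of 2.09% repeated words against 9.3% for intron positions, and intergenic peaks 2.70% against 11.65%. Members had a mean of 0.667% against 4.35% for coding positions. Of the 558, 73 held any repeated word, 13.1% (10.4 to 16.2), against 20.3% of coding positions. None had more than 50% of its words repeated, which allows a share of up to 0.659%, against 3.27% of coding positions. How repeated reads were aligned is not stated, and the part of repeats and of GC in the coding share was not tested.

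The exon under the summit was close to coding bases in its median length, and the longest exons held more members than their share. The median was 263 bp (237 to 291) against 251 bp. The quintile of longest exons, above 543 bp, held 145 members, 25.99% (22.4 to 29.8), or 1.30 times its share. The next, from 311 to 543 bp, held 92, or 0.829 times. The longest exon with members was 12197 bp, in cpna-2, a copine gene, with 2 summits. The shortest was the 3 bp start of F53E2.2. The median distance from summit to exon edge was 59 bp (52 to 66) against 56 bp. Internal exons held 418 members, 74.9% (71.1 to 78.5) against 72.3% of coding bases, first exons 59, 10.6% against 10.8%, and last exons 69, 12.4% (9.75 to 15.4) against 15.1%. Within the coding sequence of the longest transcript the first, middle and last parts of equal length held 167, 188 and 197 of 552 summits.

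The rule turns on which side of a coding border the summit lies, so the peaks nearest the border are given as they are. Of 241 peaks with a summit within 25 bp of one, 122 were inside and were members, with a median signal of 2.321 and a median GC of 36.8%. Those outside had 2.317 and 37.3%. Coding sequence made up a median of 52.4% of the peak inside and 50.8% outside.

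Genes with a member were long. The median coding length of the gene, counted per summit, was 1744 bp (1614 to 1887) against 1509 bp for coding bases, which already weights genes by length. With each gene counted once it was 1677 bp for the 524 genes with a member and 987 bp for all 19973 nuclear protein-coding genes, of which the 524 are 2.62%. A spread over coding bases alone would also favour long genes in this second comparison. Genes of the longest quintile by coding bases, above 3099 bp, held 136 members, 1.22 times their share (24.4%, 20.9 to 28.1). Genes up to 936 bp held 95, 0.845 times their share, and the next quintile 0.829 times. The number of coding exons had a median of 8 (7 to 8) against 7, and gene span a median of 3671 bp (3387 to 3992) against 3410 bp. The 50 genes of longest coding sequence, from 9825 bp to the 45564 bp of the titin gene ttn-1, held 23 members in 17 genes, where their share of coding bases comes to 17.4. No interval was taken for this count, which includes 2 overlapping peaks in mua-3, and it was not tested.

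**Figure D4:**
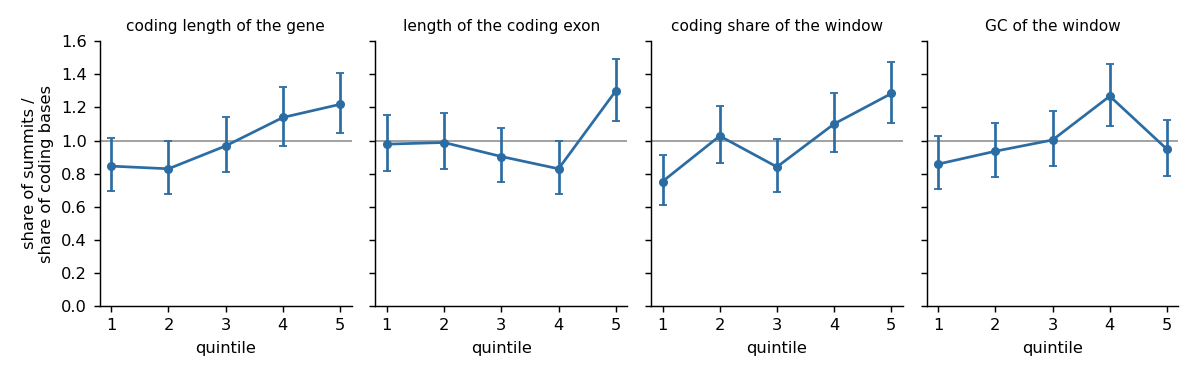
Share of the 558 coding exon summits divided by the share of coding bases, with exact 95% intervals on the summit share, in quintiles (1 lowest, 5 highest) of the coding length of the gene, exon length, coding share of the window and GC of the window. The line at 1 is the value for an even spread over coding bases. The ratio is 1.22 in the genes of longest coding sequence and 1.30 in the longest exons, and for GC it is highest, 1.27, in quintile 4.

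Most genes had a single member summit. Of the 524 genes, 491 had 1, 32 had 2 and 1 had 3. That gene, swsn-7, a component of SWI/SNF chromatin remodelling complexes on chromosome II, had signals of 2.688, 2.321 and 2.058 at 3 peaks that overlap each other at its last 2 coding exons. A spread by coding length alone would put 14.4 genes at 2 or more, against the 33 observed. Neighbouring summits in these genes lay 199 to 35512 bp apart, with a median of 398.5 bp, and 21 of the 34 pairs were within 1500 bp, so many lay closer together than the width of a peak. In all, 63 members overlapped another peak of replicate 2. With the strongest of each overlapping set kept, a choice made after seeing the data, 523 members remained and 16 genes had 2 or more, against 12.7 by coding length. Among these 16, named after their values were seen, were ttn-1, the giant adhesion protein gene dig-1, pezo-1, the L-type calcium channel gene egl-19 and the Argonaute gene csr-1.

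Members lay more often in chromosome centres than coding bases do. Cutting each chromosome in 3 equal lengths, the central part held 262 members, 46.9% (42.7 to 51.2), against 39.8% of coding bases. The left part held 26.2% against 30.4% and the right part 26.9% against 29.7%. By chromosome the members numbered 94 on I, 96 on II, 64 on III, 97 on IV, 120 on V and 87 on X, and each share's interval held the chromosome's share of coding bases. Promoter windows, which reach from 1000 bp before to 500 bp after the start of a protein-coding transcript, held 155 members, 27.8% (24.1 to 31.7), against 33.0% of coding bases.

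Gene classes were taken by symbol, and the counts are set beside the number that each class's share of coding bases gives. All 23 classes together held 83 members, 14.9% (12.02 to 18.1), against 15.2% of coding bases, or 84.9 members. The largest class, the chemoreceptors, which are the olfactory-type receptor genes of the worm, held 26 against 29.2. Its 5 strongest were srz-71 at 4.035, srbc-70 at 2.936, srj-40 at 2.74, str-94 at 2.698 and srh-125 at 2.658. The whole peaks of all 26, non-coding bases included, had a median GC of 34.6%. The coding sequence of the class alone is 37.3% GC, which is not a like measure. The F-box genes, which code for substrate adaptors of ubiquitin ligases, held 9 against 7.21, led by fbxa-179 with 3.265 and fbxa-72 with 3.19. The C-type lectins held 8 against 5.69, led by clec-198 with 2.829, and the nuclear hormone receptors 8 against 7.31, where nhr-21 with 2.77 followed nhr-35.

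Classes of long matrix and muscle genes had members at high coding share. Matrix and adhesion genes held 5 against 3.59: 2 in dig-1 with signals of 3.498 and 2.439, 1 in the fibrillin gene fbn-1 with 2.97, and 2 in mua-3, an epidermal attachment gene, with 2.244 and 2.091. The mua-3 peaks overlap each other in 1 exon, so they are 1 region counted in 2 summits. Of these 5 peaks, 4 were coding over their whole length. Those 4 lay in exons of 1041 to 3890 bp, longer than the 590 bp peak. The coding share of windows on the coding bases of matrix and muscle genes was not measured. Muscle filament genes held 2 against 3.18, both in ttn-1, with 2.619 and 2.342. Large cytoskeleton and neuron genes held 2 against 3.05, in the spectrin gene sma-1 with 2.179 and the dynein heavy chain gene dhc-1 with 2.009.

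The remaining classes gave small counts, above and below the number by length. The ribosomal protein genes, whose coding sequence is 53.5% GC, held 3 against 0.894. These were 2 overlapping peaks in rps-7 at 3.4 and 2.585 and 1 in rpl-17 at 2.036. The cuticle collagens, whose coding sequence is 53.9% GC, held 1, col-49 with 2.321, against 4.04. Histone genes, at 53.2% GC, held 0 against 0.598, and 0 were found in the yolk, sperm, actin and tubulin, and proton pump and respiratory chain classes, where less than 1 was given by length in each. The glutamine-rich genes held 0 against 2.80, which allows a share of up to 0.659% of the members. Translation factors held 1 against 1.12, the elongation factor gene eef-2 with 2.298. Chaperones held 1 against 1.69, dnj-5 with 2.097. The MATH and BTB genes held 2 against 2.21, math-39 with 2.244 and btb-14 with 2.117. Detoxification genes held 4 against 5.50, all of them cytochrome P450 genes: cyp-34A2, cyp-29A3, cyp-33D1 and cyp-37A1.

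Germline and meiosis genes held 6 members against 1.65, 1.08% of the members (0.396 to 2.33) against 0.296% of coding bases. They were in 6 different genes of 29, led by pgl-1, a P granule component, with 2.991. It was followed by the translational repressor gene gld-1 with 2.838, the meiotic cohesin gene rec-8 with 2.525, the RNA-binding protein gene mex-3 with 2.365 and the meiotic chromatin factor gene him-17 with 2.097. The class was 1 of 23 looked at, and the count was not tested. RNA polymerase genes held 2 against 0.739, rpoa-2 and rpc-25.

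Genes of the pharynx, where PHA-4 acts, held 2 members against 0.535, 0.358% of the members (0.0434 to 1.29) against 0.0959% of coding bases. One was ceh-22, the homeobox gene of pharyngeal muscle, with a signal of 2.412 at an exon outside its longest transcript. The other was peb-1, a pharyngeal DNA-binding factor gene, with 2.411 in exon 6 of 7. Both summits lay in a promoter window, and the count was not tested. The homeobox, helix-loop-helix and forkhead class held ceh-22 and hlh-11, against 2.05. In pha-4 itself 0 members were found and 1 replicate 2 summit lay in a non-coding part of the gene. In unc-119, the gene whose mutation the strain carries, there were 0 of either.

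**Figure D5:**
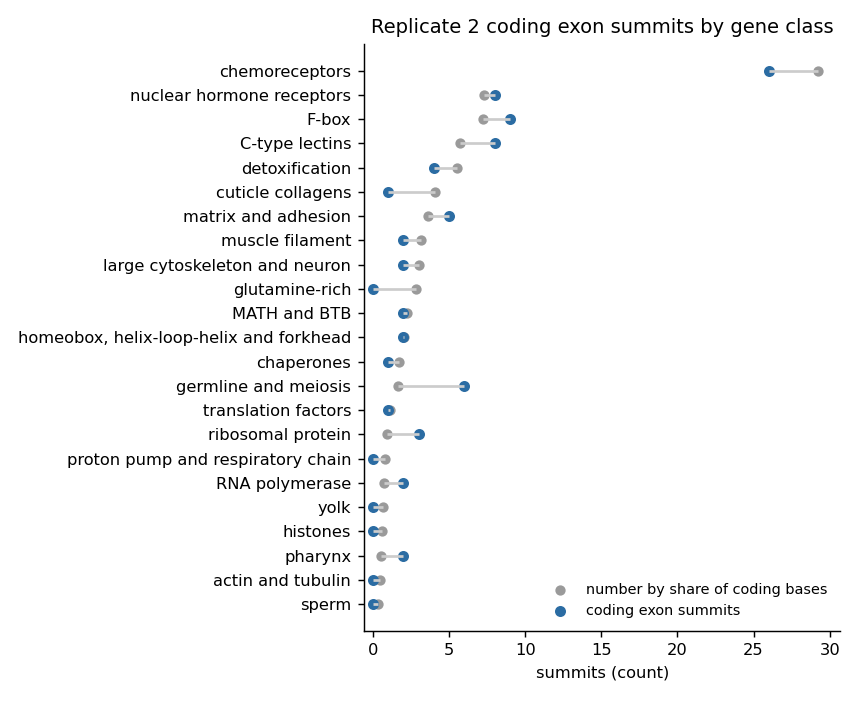
Number of coding exon summits (blue) and the number given by the share of coding bases (grey) for each of 23 gene classes, in counts. Chemoreceptors hold 26 against 29.2, germline and meiosis genes 6 against 1.65 and cuticle collagens 1 against 4.04.

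The values of replicate 1 were not used to choose the members, but the place of the summit was, and replicate 1 peaks are themselves sparse in coding sequence. By 1 bp or more, 13 of the 558 members overlapped a replicate 1 peak, 2.33% (1.25 to 3.95), where all nuclear replicate 2 peaks did so in 4.65%. Windows on coding positions would overlap one in 3.84%, inside the interval of the members. The 1163 other nuclear peaks overlapped in 67 cases, 5.76% (4.49 to 7.26). The places differ in this by position alone, so members and others are not compared directly, and each place is set beside its own positions. Intron peaks overlapped in 3.66% (2.22 to 5.66) against 4.27% of intron positions, intergenic peaks in 7.52% (5.35 to 10.2) against 6.30%, and other exon peaks in 7.24% (3.67 to 12.6) against 6.32%. In each of the 4 places the interval held the value of the positions. The pooled list was overlapped by 107 members, 19.2% (16.0 to 22.7), close to the 20.3% of all nuclear replicate 2 peaks and above the 6.12% of coding positions. It was called on reads of both replicates, so this overlap is not independent.

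The 13 members that met a replicate 1 peak had replicate 2 signals from 2.036 to 3.496. Their replicate 1 partners had signals from 2.273 to 14.04, with a median of 3.614, and ranks from 62 to 4688. Summits lay 33 to 459 bp apart, within 100 bp in 4 cases, and the replicate 1 summit was coding in 7, intronic in 2, intergenic in 3 and in other exon sequence in 1. The strongest in replicate 2 was sec-5, an exocyst subunit gene, with 3.496 against 2.289 in replicate 1 and summits 444 bp apart. The member in rps-7 had 3.4 against 5.31, with the replicate 1 summit intergenic. The member in drr-2, a translation factor-related gene, had 3.269, and its partner, 284 bp away and intergenic, had the 14.04.

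Among the others, F53E2.2 had 3.006 against 6.953, with the replicate 1 summit 455 bp away and intergenic. The replicative helicase subunit gene mcm-6 had 2.821 against 2.562, in a peak coding over its whole length. The member in clec-83 had 2.537 against 2.317, F54D1.6 had 2.411 against 4.824, and the chemoreceptor gene srh-25 had 2.244 against 2.273. The zinc-finger homeobox gene zfh-2 had 2.226 against 3.614 with summits 85 bp apart. Y38A10A.2 had 2.089 against 2.783 with summits 432 bp apart. The transporter gene pgp-3 had 2.049 against 4.275, at 33 bp the closest pair, and C53A5.11 had 2.049 against 2.94. Signals of the replicates stand on scales whose relation is not stated.

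The PHA-4 consensus was sought as T, A or G, T, T, G or T, A or G, C or T, on either strand, wholly within 100 bp of the summit. It was found at 232 members, 41.6% (37.5 to 45.8), where all nuclear replicate 2 summits held it in 46.1%. Windows on coding positions held it in 42.5%, inside the interval of the members. Equally wide windows 500 bp away on either side of member summits held it in 46.6% (43.6 to 49.6), in sequence that was less often coding. The 1163 other replicate 2 summits held it in 48.2% (45.3 to 51.2), and the places differ here too by position alone. Intron summits held it in 45.1% (40.8 to 49.5) against 43.0% of intron positions, intergenic summits in 48.6% (44.1 to 53.1) against 47.9%, and other exon summits in 57.9% (49.6 to 65.8) against 50.6%. The last gap was the widest of these, and its interval held the value of the positions. The 860 coding summits of replicate 1 held it in 46.1% (42.7 to 49.4), so that the lower end of this interval lay just above the coding positions. Of the 15 strongest members 11 held it, xpo-1, nhr-35 and faxc-2 among them, and of the 13 that overlapped replicate 1, 5 did. A match is a description of the letters and shows no binding.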

How the data were processed

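Each sample was an eGFP::PHA-4 ChIP-seq library of whole late embryos. The signal of each peak was computed against control by the authors' caller, and its scaling between libraries is not stated. The deposited −log10 q-value was turned into q. Per the file listing deposited with the samples, the relaxed ce11 lists used 2 control alignments. No aligner or caller version is given in the sources used here. Peak width was 590 bp in the replicate 2 list and 344 bp in that of replicate 1. Summits were placed on WBcel235 with the Ensembl release 115 annotation, coding sequence of any transcript first, then other exon, intron and intergenic sequence. Peaks were compared with windows of the same width on every nuclear position of the same place, by exact sums. Shares carry exact Clopper-Pearson 95% intervals and medians carry binomial order-statistic 95% intervals. Both treat peaks as independent, although some overlap. With 1 library per list no test over samples was possible, and no p-value is given. Python 3.11.15, numpy 2.4.6, pandas 2.3.3 and scipy 1.17.1 were used, and the counting was checked on simulated positions. Named genes were the 15 strongest members, genes with 3 or more summits, up to 5 per class, up to 12 that overlap replicate 1 by signal, pha-4 and unc-119. The member rpl-17, named as a ribosomal protein gene, is the last of the 13 that overlap. The members, classes and this rule were chosen with earlier results of these data known. The 8 mitochondrial peaks of replicate 2 were left out, and the ce10 lists were counted only.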

Additional observations from a re-analysis of the deposited data

How the results depend on the processing

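No paired analysis was possible because there is 1 group and the values come from 1 list. Of 62 alternatives, 31 stayed within the interval of the value reported (or within 1.5 times for a count of genes) and 31 did not. Staying within is not always like agreement. The coding share per peak of replicate 1, 72.1%, and of the pooled list, 72.9%, stayed within. Coding positions in windows of their widths, 344 and 350 bp, have 72.7% and 72.6%. The members had 68.6% against 64.2% in windows of 590 bp, so their excess over positions was not seen in those lists. Some settings fix the direction of their own change. A narrower or wider window can only lower or raise the consensus share, and a stricter overlap rule can only lower the overlap. Taking peaks at least 50% coding selects on the coding share that is then reported. Leaving out promoter windows removes sequence near gene starts, which is a larger part of a short gene. Coding positions under these filters were not measured, so the lengths and coding shares they give have no like value beside them. The cause of the other changes was not tested. Limiting the list to its strongest 250 nuclear peaks gave a coding share of 36.4% of peaks (30.4 to 42.7), 77.1% coding per peak and 39.7% GC. Exons were 296 bp, overlap with replicate 1 was 4.40% (1.21 to 10.9) and the consensus was at 47.3%. Only 91 members remained in that setting, and the interval of each of these values held the value of the full list. The strongest 1000 gave 73.8% coding per peak. Taking peaks at least 50% coding in place of coding summits gave 30.2% of peaks, 75.4% coding per peak, 39.1% GC, exons of 358.5 bp and genes of 1968 bp. Leaving out members in promoter windows kept 403 members, 23.4% of all 1721 nuclear peaks, since other peaks in promoter windows stayed in the total. That share is therefore not on the same footing as the coding share of all nuclear bases. The 403 had 75.2% coding per peak, exons of 313 bp and genes of 2127 bp. Without replicate 2, the rule applied to replicate 1 gave 15.4%, 39.2% GC, genes of 1536 bp and the consensus at 46.1%; its peaks are narrower, and coding positions in windows of that width have 38.7% GC. The pooled list gave 19.2%, 39.4% GC and genes of 1608 bp. GC within 100 bp of the summit was 39.3%, the value of coding positions. Overlap with replicate 1 was 0.896% when 50% of the peak had to be covered, and 0.717% both with summits within 100 bp and with the strongest 1000 replicate 1 peaks. The consensus was at 22.0% within 50 bp and 79.7% in whole peaks. Added after seeing the data, peaks without repeated words gave a coding share of 35.0%, and collapsing overlapping peaks left 16 genes with 2 or more. The ce10 lists (1622 nuclear peaks of replicate 2 against 1721) could not be placed on this annotation, and overlap with replicate 1 has no value for that list or the pooled one. Unknown depth limits every value.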

Other observations

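Of 94 symbol families with at least 20 protein-coding genes, looked at after the data were seen, the dpy genes, named for a short and stout mutant body, held the most members beyond their coding length, 5 against 1.27 in 25 genes. They were dpy-26 (signal 5.323), dpy-6 (3.269), dpy-21 (2.244), dpy-23 (2.148) and dpy-28 (2.148). Of these, dpy-26, dpy-21 and dpy-28 code for parts of the dosage compensation complex. That complex was not counted as a class, so it has no number by coding length and its other genes were not looked at as a set. The unc genes, named for uncoordinated movement, stood at the other end with 3 against 7.17 in 94 genes. Neither count was tested. Genes with a sequence name only held 186 members, 33.3% (95% interval 29.4 to 37.4), against 34.4% of coding bases.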
